A study of Drosophila melanogaster with 16 samples.

Results

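The comparison set larvae of Drosophila melanogaster that carried Dahomey mtDNA against larvae that carried Alstonville mtDNA, both raised on a diet called 1:16 P:C, a food with 16 parts of carbohydrate to 1 part of protein. Its members were chosen by the labels for mitotype and diet alone: 4 Dahomey and 4 Alstonville libraries, 8 of the 16 libraries of the series, each measured by RNA-seq over all genes. The other 8 libraries came from larvae of both mitotypes on a food richer in protein, called 1:2 P:C, and entered the fit as groups of their own. Per the methods of the study both mitotypes had the w1118 nuclear genome, reached by replacing chromosomes with balancers and by repeated backcrossing, so that the lines could still differ in chromosome 4. Whole female larvae of the third instar that had left the food to wander were collected, but the number of larvae behind a library was not given. The protocol in the labels speaks of sorted cells, whereas the source in the labels is larvae, and muscle, fat body, midgut and neuron markers all had counts in every library. The study calls its replicates biological, that is, distinct samples, but which cultures the 4 libraries of a group came from was not given.

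A mitotype is the haplotype of the mitochondrial genome, which encodes 13 subunits of the oxidative phosphorylation complexes together with the ribosomal and transfer RNAs to translate them, while all other mitochondrial proteins are encoded in the nucleus and imported. The wandering larva is close to metamorphosis: its fat body stores hexamerin proteins, its salivary glands secrete glue, its imaginal discs divide to form the adult epidermis, and pulses of the steroid ecdysone time these steps. The study asked how nuclear and mitochondrial transcripts differed between mitotypes on a food high in carbohydrate.

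Each of the 8 libraries held 24869991 to 30340627 reads assigned to genes, and 14.4 to 17.3% of the reads of a library fell on its 10 most abundant genes. Levels are given in CPM, which relate the count of a gene to the total of its library, with that total corrected by TMM, a trimmed mean over genes of the log ratios between libraries. They are listed for replicates 1 to 4 in this order or as mean ± SD over the 4 libraries of a mitotype. A gene was called where its adjusted p was under 0.05 in the quasi-likelihood test of edgeR (Benjamini-Hochberg over all 12750 tested genes), and only such genes are said to have risen, fallen or changed. Fold changes are Dahomey over Alstonville on the log2 scale, with SE derived from the test. Positions of genes are those of the NCBI annotation on Release 6 plus ISO1 MT, the assembly the study aligned to.

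On 1:16 P:C 1952 genes were called, 15.3% of those tested, of which 766 were higher (6.01%) and 1186 lower (9.30%) in Dahomey than in Alstonville larvae. The genes that rose did so by more than those that fell: the median log2 fold change was 0.99 over the higher and -0.51 over the lower genes, and 49.7% of the higher against 11.3% of the lower genes differed by over 2-fold. They were also less abundant, with a median level of 7.11 CPM over the higher and 41.8 CPM over the lower genes. In genes averaging 1 to 10 CPM 10.4% were higher and 4.71% lower, whereas between 100 and 1000 CPM 1.78% were higher and 18.5% lower. Dahomey libraries had counts for 14355 to 14657 genes, against 13054 to 13671 genes in Alstonville libraries, so that these ranges did not overlap although those of the totals did. Over all tested genes the median log2 fold change was -0.03 and 48.0% of values were above 0. Of the 1952 genes 1860 showed no overlap between the 4 libraries of either mitotype, whereas 44.0% of all tested genes did so, 19.8% with Dahomey above and 24.2% with Dahomey below. On chromosome 4, in which the lines could differ, 6 of 94 tested genes rose and 7 fell, and of 386 long noncoding RNAs 25 rose and 9 fell.

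**Figure D1:**
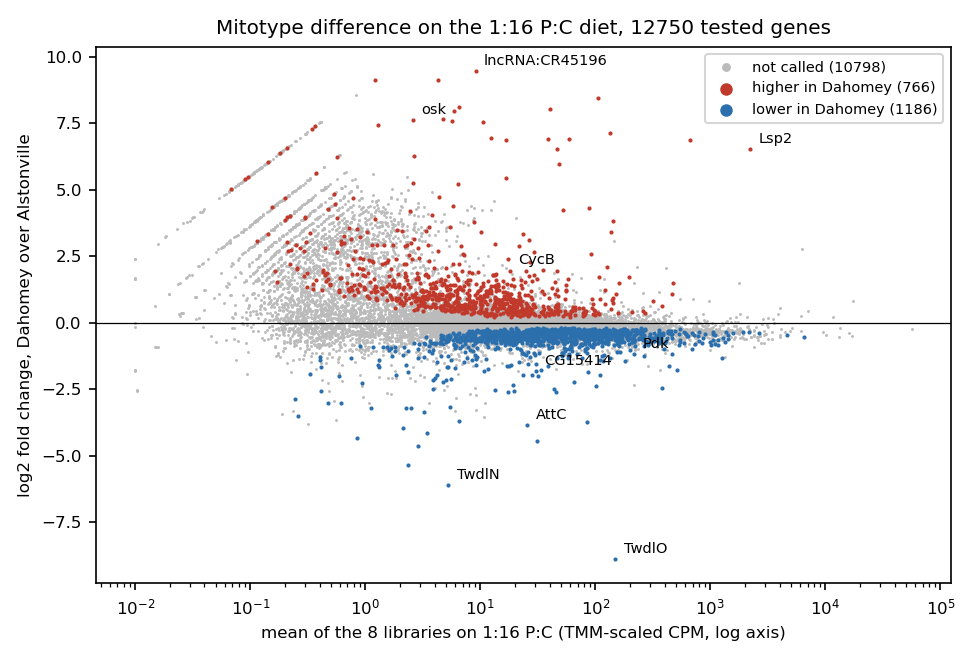
Each point is 1 of 12750 tested genes, plotted by its mean CPM over the 8 libraries on 1:16 P:C (log axis) and its log2 fold change, Dahomey over Alstonville. The 766 called genes higher in Dahomey (red) lie mostly at lower levels than the 1186 called genes lower in Dahomey (blue), and the other 10798 genes are grey.

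The balance of directions moved with the scaling. TMM factors were 0.881 to 1.09 in Dahomey and 0.794 to 0.861 in Alstonville libraries, without overlap, and a lower factor raises the CPM of a library. Statements of overlap between libraries refer to CPM with these factors. With relative log expression factors 1002 genes were higher and 919 lower in Dahomey, and with upper-quartile factors, which moved the median of all genes by 0.13, 1371 were higher and 592 lower. Requiring 10 counts in every library gave 1260 higher and 750 lower, DESeq2 1475 and 1431, and a fit of the 8 libraries alone 2855 and 1910. The number of calls moved by over 1.5 times when any of 4 libraries of the 1:16 P:C diet was left out, to 1199 or 1221 without replicate 2 or 4 of Dahomey, and to 1021 or 1086 without replicate 1 or 3 of Alstonville.

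The principal component with the largest share of the variance among the 8 libraries (71.4%) separated the mitotypes, and the next (12.8%) separated Dahomey replicate 2 from the other 7. That library stood apart in the salivary glue transcripts: the 6 glue markers summed to 4.20, 2639, 4.86 and 5.74 CPM in Dahomey libraries, against 4.44, 6.60, 4.51 and 4.76 CPM in Alstonville libraries. Among the Alstonville libraries replicate 2 stood apart in the fat body markers, which summed to 36820, 48680, 31900 and 40800 CPM in Dahomey, against 5571, 35830, 5380 and 11730 CPM in Alstonville libraries. Marker sums of other tissues differed in level as well, but 0 of 13 muscle and 1 of 7 midgut markers were called. All 13 muscle markers were below 0 in fold change, and their sum was 57720, 35050, 69110 and 57640 CPM in Dahomey libraries, against 78920, 82630, 72140 and 76010 CPM in Alstonville libraries, without overlap. Midgut markers ranged over 3700 to 7891 CPM in Dahomey and 7827 to 9945 CPM in Alstonville libraries, and neuron markers over 324.8 to 359.5 CPM and 388.8 to 417.9 CPM. In whole larvae fewer cells of a type cannot be told apart from less RNA per cell. The fit was repeated without each of the 16 libraries in turn. Where a named gene lost its call for mitotype on 1:16 P:C the libraries are named, as replicates of that diet unless 1:2 P:C is written. Losses of calls for the interaction are given as counts only.

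**Figure D2:**
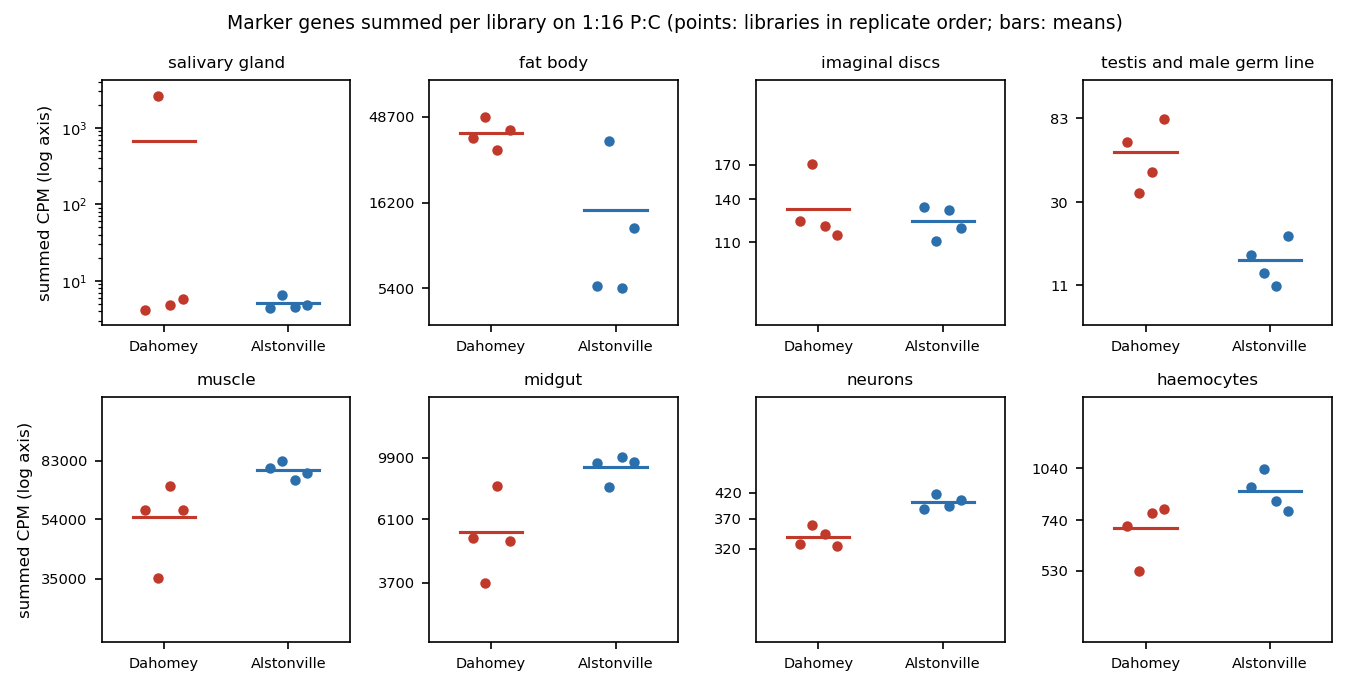
Summed CPM (log axes) of the markers of 8 tissues in each library on 1:16 P:C, Dahomey left and Alstonville right in each panel, with points as libraries in the order of their replicates and bars as means. The salivary gland panel shows 1 Dahomey library at 2639 CPM and the other 7 between 4.20 and 6.60 CPM, and in the muscle and neuron panels all Dahomey points lie below all Alstonville points.

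Genes of cell division were higher in Dahomey. Of 21 tested cell cycle genes 14 were higher and 0 lower in Dahomey, with a median log2 fold change of 1.20 against -0.03 over all genes, and 14 were still higher without Dahomey replicate 2. The list is led by regulators of mitosis. CycB (2R:22803521-22806948), the B-type cyclin that drives entry into mitosis, had 21.1, 45.2, 21.8 and 27.3 CPM in Dahomey, against 5.86, 11.1, 6.15 and 6.65 CPM in Alstonville libraries (log2 fold change 1.95, SE 0.27, adjusted p = 0.00109). Levels were highest in replicate 2 of either mitotype, and the lowest Dahomey library was above the highest Alstonville library. fzy (2L:16310956-16313097), the Cdc20 activator of the anaphase-promoting complex, stood at 13.2 ± 4.6 CPM in Dahomey and 3.65 ± 1.01 CPM in Alstonville libraries (log2 fold change 1.85, SE 0.24, adjusted p = 0.00086). stg (3R:29251826-29255800), the Cdc25 phosphatase that releases Cdk1 from inhibition, stood at 15.7, 29.5, 17.2 and 21.3 CPM in Dahomey, against 4.44, 10.4, 4.34 and 4.94 CPM in Alstonville libraries (log2 fold change 1.80, SE 0.27, adjusted p = 0.00155). Neither gene overlapped between mitotypes.

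The 5 genes with the smallest p among those averaging at least 10 CPM and higher in Dahomey were mostly of mitosis, and only BubR1 of them was in the list. feo (X:10852446-10854869), a microtubule bundler of the central spindle, had 16.3, 26.5, 18.6 and 19 CPM in Dahomey, against 4.73, 8.22, 4.56 and 5.68 CPM in Alstonville libraries (log2 fold change 1.79, SE 0.19, adjusted p = 0.000456). Incenp (2R:7278467-7281795), the scaffold of the Aurora B complex, had 28.2 ± 5.91 CPM in Dahomey and 11 ± 2.36 CPM in Alstonville libraries (log2 fold change 1.36, SE 0.16, adjusted p = 0.000837). Klp61F (3L:1241568-1245910), the kinesin-5 that separates spindle poles, had 20.1 ± 4.26 CPM in Dahomey and 7.54 ± 1.74 CPM in Alstonville libraries (log2 fold change 1.41, SE 0.17, adjusted p = 0.000837). Each of these was without overlap. The spindle checkpoint kinase BubR1 (2R:5969099-5974385) had 17.2 ± 3.91 CPM in Dahomey and 7.5 ± 0.639 CPM in Alstonville libraries (log2 fold change 1.20, SE 0.14, adjusted p = 0.000837). Its Dahomey libraries lay above all Alstonville libraries too, and replicate 2 was the highest of either mitotype for all 4 genes. The remaining gene of the 5, CG33267, had 50.9 ± 16.6 CPM in Dahomey and 8.02 ± 2.66 CPM in Alstonville libraries (log2 fold change 2.67, SE 0.33, adjusted p = 0.000837), and here Dahomey replicate 2 was the lowest of its group.

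Of 38 tested DNA replication genes 26 were higher and 0 lower in Dahomey, with a median of 0.55, and 20 were higher without Dahomey replicate 2. Mcm7 (3L:8891596-8894310), a subunit of the helicase that opens the origin, had 20, 35.4, 21 and 23.7 CPM in Dahomey, against 10.1, 14.9, 10.8 and 11.7 CPM in Alstonville libraries (log2 fold change 1.07, SE 0.17, adjusted p = 0.00169). Exons of an antisense RNA cover 81.7% of its exon bases, and since strand was not stated the reads of both cannot be told apart. Mcm10 (2L:21179933-21182812), which helps to load polymerase at the fork, had 5.99 ± 1.66 CPM in Dahomey and 2.83 ± 0.517 CPM in Alstonville libraries (log2 fold change 1.08, SE 0.20, adjusted p = 0.00379). Orc5 (2L:13829837-13831576), of the origin recognition complex, had 5.33 ± 0.596 CPM in Dahomey and 2.84 ± 0.269 CPM in Alstonville libraries (log2 fold change 0.91, SE 0.20, adjusted p = 0.00997). All 3 genes were without overlap. On 1:2 P:C the same lists had medians of 0.07 for the cell cycle and 0.01 for replication, and 5 cell cycle and 2 replication genes were called for the interaction of mitotype and diet.

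**Figure D3:**
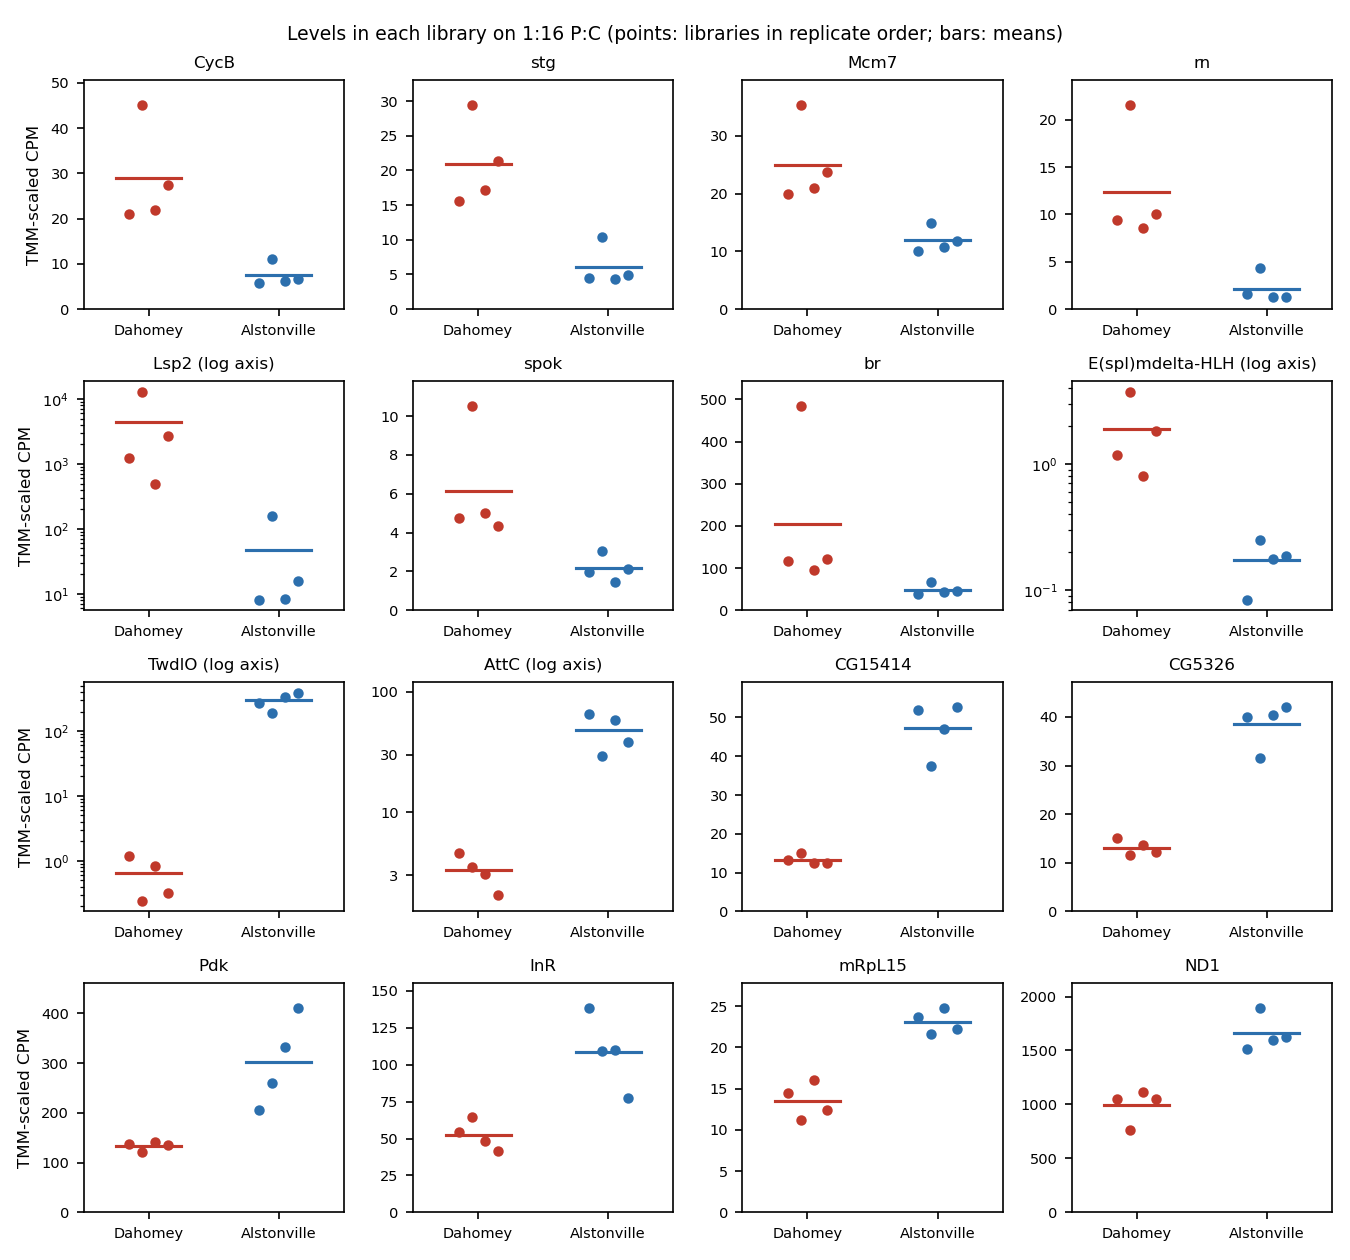
Levels of 16 genes in each library on 1:16 P:C (CPM, log axis where stated), Dahomey left and Alstonville right, with points as libraries in the order of their replicates and bars as means. In the upper panels the Dahomey points lie above the Alstonville points, with Dahomey replicate 2 highest, and from TwdlO onward they lie below them.

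Of 7 markers of the imaginal discs, genes that pattern the appendages, 4 rose and 0 fell in Dahomey (median 0.70). Of the other markers 2 had fold changes below 0 (lowest -0.43), in 1 of them with all Dahomey libraries below all Alstonville libraries. rn (3R:7272617-7309629), a zinc finger protein of the ring that forms distal appendages, had 9.41, 21.6, 8.51 and 9.99 CPM in Dahomey, against 1.59, 4.32, 1.24 and 1.25 CPM in Alstonville libraries (log2 fold change 2.56, SE 0.40, adjusted p = 0.00168). vg (2R:12884201-12899385), the selector of wing identity, had 4.36 ± 2.46 CPM in Dahomey and 1.33 ± 0.208 CPM in Alstonville libraries (log2 fold change 1.71, SE 0.33, adjusted p = 0.005). en (2R:11524006-11528210), the selector of posterior compartments, had 5.39 ± 2.11 CPM in Dahomey and 1.98 ± 0.298 CPM in Alstonville libraries (log2 fold change 1.45, SE 0.32, adjusted p = 0.0095). For ap, the dorsal selector of the wing, the log2 fold change was 0.69 (SE 0.20, adjusted p = 0.0301), and it was not called without Dahomey replicate 2 or 4 or Alstonville replicate 1, 3 or 4 (adjusted p = 0.0575 to 0.1). The 7 markers together did not separate the mitotypes, as their sum was 114.7 to 170.6 CPM in Dahomey and 110.7 to 134.1 CPM in Alstonville libraries.

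Notch is a receptor whose cleaved intracellular part switches on the E(spl) repressors. Of 25 tested genes of the pathway 11 were higher and 2 lower in Dahomey (median 0.50), with 8 higher without Alstonville replicate 1 or 3. The receptor N (X:3134870-3172221) had 48.5, 112, 47 and 57 CPM in Dahomey, against 18.7, 34.1, 20.1 and 19.1 CPM in Alstonville libraries (log2 fold change 1.52, SE 0.29, adjusted p = 0.00479). Among its targets E(spl)mdelta-HLH (3R:25997621-25998633) had 1.18, 3.75, 0.796 and 1.83 CPM in Dahomey, against 0.0837, 0.249, 0.177 and 0.185 CPM in Alstonville libraries (log2 fold change 3.41, SE 0.48, adjusted p = 0.00117). The related E(spl)m7-HLH (3R:26037038-26038019) had 2.56 ± 2.18 CPM in Dahomey and 0.333 ± 0.225 CPM in Alstonville libraries (log2 fold change 2.93, SE 0.57, adjusted p = 0.00546). E(spl)m5-HLH (3R:26028854-26029735) rested on 40 counts in the 4 Dahomey and 2 counts in the 4 Alstonville libraries, a ratio of 17.6 after scaling with a 95% exact counting interval of 4.55 to 149.9. It was at 0.336, 0.379, 0.335 and 0.458 CPM in Dahomey, against 0, 0.0415, 0.0443 and 0 CPM in Alstonville libraries. In all 4 genes every Dahomey library was above every Alstonville library. The 2 members that fell were ubiquitin ligases: Nedd4 (3L:17530081-17546660), which degrades Notch, had 152 ± 10 CPM in Dahomey and 222 ± 13.5 CPM in Alstonville libraries (log2 fold change -0.54, SE 0.07, adjusted p = 0.000837), and neur, which acts on the ligand Delta, a log2 fold change of -0.55 (SE 0.11, adjusted p = 0.00671). For neur 38.8% of the exon bases lie under an antisense RNA.

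Of 22 Polycomb and trithorax genes, which keep developmental genes off or on, 3 were higher and 1 lower in Dahomey (median 0.20). The count of higher genes was 1 without Alstonville replicate 1 or 3, 5 without Dahomey replicate 1 and 6 without Alstonville 1:2 P:C replicate 4, and 8 with relative log expression and 10 with upper-quartile scaling. The largest change among the called genes was that of ph-p, a subunit of the Polycomb repressive complex 1, at 35.8 ± 7.49 CPM in Dahomey and 22.2 ± 1.93 CPM in Alstonville libraries (log2 fold change 0.69, SE 0.16, adjusted p = 0.0138).

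Genes that make ecdysone in the prothoracic gland had 3 of 9 tested members higher and 0 lower in Dahomey (median 1.00), and these 3 were also called without Dahomey replicate 2. They were sro, sad and spok, all Halloween genes of the synthetic pathway. sro (3R:29794597-29795805) had 1.18, 5.68, 0.712 and 1.3 CPM in Dahomey, against 0.209, 0.374, 0.31 and 0.277 CPM in Alstonville libraries (log2 fold change 2.91, SE 0.67, adjusted p = 0.0113). sad (3R:11877235-11879754) had 4.95 ± 3.18 CPM in Dahomey and 0.917 ± 0.483 CPM in Alstonville libraries (log2 fold change 2.43, SE 0.46, adjusted p = 0.00486). spok (3R:3322810-3354486) had 4.75, 10.5, 4.99 and 4.36 CPM in Dahomey, against 1.97, 3.07, 1.46 and 2.13 CPM in Alstonville libraries (log2 fold change 1.51, SE 0.29, adjusted p = 0.0051). Replicate 2 of Dahomey was the highest library for each, and the other 3 Dahomey libraries were still above all Alstonville libraries. On 1:2 P:C the levels were far above these, with spok at means of 73.2 CPM in Dahomey and 59.9 CPM in Alstonville libraries.

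Of 17 genes that respond to ecdysone 3 were higher and 0 lower in Dahomey, with a median of 0.09 that was -0.22 without Dahomey replicate 2, where 1 of the 3 was called. That one was Eip93F (3R:21949114-22014539), a transcription factor of the prepupal response, at 3.36, 8.1, 2.85 and 4.61 CPM in Dahomey, against 0.795, 0.789, 0.266 and 0.277 CPM in Alstonville libraries (log2 fold change 3.13, SE 0.57, adjusted p = 0.00384). br (X:1575132-1664869), the Broad factor of the metamorphic switch, had 116, 485, 95.8 and 122 CPM in Dahomey, against 37.9, 65.9, 43.6 and 44.5 CPM in Alstonville libraries (log2 fold change 2.09, SE 0.57, adjusted p = 0.0249), and was not called without Dahomey replicate 2 or Alstonville replicate 1, 3 or 4 (adjusted p = 0.0645 to 0.0978). Eip74EF, an early ETS factor, had 47.6 ± 28.5 CPM in Dahomey and 21 ± 2.36 CPM in Alstonville libraries (log2 fold change 1.18, SE 0.37, adjusted p = 0.0461), and was not called without Dahomey replicate 2 or 4, any single Alstonville replicate, Dahomey 1:2 P:C replicate 1, 2 or 3 or Alstonville 1:2 P:C replicate 2 (adjusted p = 0.0521 to 0.173). The count was also 1 without Alstonville replicate 1, 3 or 4.

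Hexamerins, which the fat body stores for metamorphosis, were listed together with the fat body proteins Fbp1 and Fbp2, and 2 of 6 members were higher in Dahomey (median 2.92). Lsp2 (3L:12129393-12131869), a larval serum protein, had 1222, 13067, 491 and 2743 CPM in Dahomey, against 8.12, 157, 8.45 and 15.9 CPM in Alstonville libraries (log2 fold change 6.53, SE 1.26, adjusted p = 0.005). Its libraries did not overlap but spread widely within either mitotype, and 84.6% of its exon bases lie under an antisense gene. Fbp1, the receptor through which hexamerins are taken up, had 10.6, 5263, 10.5 and 13.8 CPM in Dahomey, against 10.3, 13.1, 11.8 and 9.93 CPM in Alstonville libraries (log2 fold change 6.87, SE 1.89, adjusted p = 0.0263). Dahomey replicate 2 alone was high. Fbp1 was not called without Dahomey replicate 2 or any single Alstonville replicate (adjusted p = 0.0622 to 0.952), and had an adjusted p of 0.952 without Dahomey replicate 2. Another member, Lsp1gamma, had 10943 ± 1885 CPM in Dahomey and 1610 ± 2967 CPM in Alstonville libraries (log2 fold change 2.76, SE 1.29, adjusted p = 0.159), was not called, and had Alstonville replicate 2 far above the other Alstonville libraries. Without Alstonville replicate 2 the list had 4 called genes, and 1 without Alstonville replicate 1, 3 or 4 or Dahomey replicate 2.

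Salivary glue genes were called through 1 library. Of 9 tested 6 were higher in Dahomey (median 6.86), and 0 without Dahomey replicate 2. Sgs3, a mucin-like glue protein, had 1.22, 1053, 1.8 and 2.29 CPM in Dahomey, against 1.8, 1.74, 2.26 and 1.8 CPM in Alstonville libraries (log2 fold change 7.12, SE 1.92, adjusted p = 0.0244). Sgs5 had 0.378, 321, 0.251 and 0.317 CPM in Dahomey, against 0.251, 0.457, 0.0885 and 0.416 CPM in Alstonville libraries (log2 fold change 8.03, SE 2.18, adjusted p = 0.0252). Sgs7 had 0.672, 468, 0.503 and 1.34 CPM in Dahomey, against 0.879, 1.29, 0.885 and 0.832 CPM in Alstonville libraries (log2 fold change 6.91, SE 1.91, adjusted p = 0.0273). The other 3 Dahomey libraries were in the range of Alstonville or beside it for all 3 genes, and their adjusted p without replicate 2 was 0.82, 0.961 and 0.772. CG12715 and CG42460, of no named function, had the same form. CG12715 was at 0.084, 51.7, 0.0838 and 0.106 CPM in Dahomey, against 0.0418, 0.083, 0.0443 and 0 CPM in Alstonville libraries. CG42460 was at 0.168, 37.5, 0.168 and 0.106 CPM in Dahomey, against 0.0837, 0, 0.0443 and 0.0462 CPM in Alstonville libraries. Both were called (adjusted p = 0.0264 and 0.0282), but not without Dahomey replicate 2 (0.491 and 0.388). None of these 5 genes was called when any of the Alstonville replicates was left out, with an adjusted p of 0.0579 to 0.0811.

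Called cuticle genes lay in both directions. Tweedle genes, a family of cuticle proteins, had 0 of 15 members higher and 6 lower in Dahomey (median -0.37), 3 lower when any single Alstonville replicate was left out and TwdlN was no longer tested, and 4 lower without Dahomey replicate 2 or 4. TwdlO (3R:26625932-26626738) had 1.18, 0.241, 0.838 and 0.317 CPM in Dahomey, against 273, 187, 339 and 390 CPM in Alstonville libraries (log2 fold change -8.88, SE 0.48, adjusted p = 6.59e-07). TwdlN (3R:26631869-26632956) had 0.21, 0.103, 0.21 and 0.0704 CPM in Dahomey, against 8.08, 5.93, 11.2 and 16.4 CPM in Alstonville libraries (log2 fold change -6.11, SE 0.74, adjusted p = 0.000837). The Dahomey libraries together held 15 counts of TwdlN. TwdlL (3R:26624587-26625652) had 0.672, 0.344, 0.251 and 0.176 CPM in Dahomey, against 7.24, 4.69, 8.05 and 5.82 CPM in Alstonville libraries (log2 fold change -4.15, SE 1.05, adjusted p = 0.0183), and was not called without Dahomey replicate 2 or 4 (adjusted p = 0.0565 and 0.0596). The 3 genes are neighbours on chromosome arm 3R, and each was low in all Dahomey and high in all Alstonville libraries. On 1:2 P:C they were near 0 in both mitotypes, TwdlO at 0.0414 CPM in Dahomey and 0.084 CPM in Alstonville libraries, and TwdlO and TwdlN were called for the interaction (adjusted p = 0.0346 and 0.0306). Copies in this family are similar in sequence, and how reads that map to several genes were counted was not stated.

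Of 67 tested chitin-binding cuticle genes 6 were higher and 6 lower in Dahomey (median -0.14), against 6.01% higher and 9.30% lower over all tested genes. The higher ones were fewer without Dahomey replicate 2 (2 genes), Alstonville replicate 1 or 3 (2 each) or Alstonville replicate 4 (3), and 13 were lower without Alstonville 1:2 P:C replicate 4. Some members are near-identical copies whose reads may have been split or dropped. Among those that fell, Lcp65Af had 1.47, 0.517, 1.13 and 0.633 CPM in Dahomey, against 9.88, 9.79, 9.74 and 19.4 CPM in Alstonville libraries (log2 fold change -3.70, SE 0.47, adjusted p = 0.000837). Lcp65Ag1 had 117 ± 55.3 CPM in Dahomey and 646 ± 95.8 CPM in Alstonville libraries (log2 fold change -2.47, SE 0.56, adjusted p = 0.0109). Among those that rose, Cpr78E had 25.2, 330, 5.78 and 16.7 CPM in Dahomey, against 1.09, 2.53, 1.11 and 1.25 CPM in Alstonville libraries (log2 fold change 5.98, SE 1.11, adjusted p = 0.00434). Lcp1 had 249 ± 322 CPM in Dahomey and 23.3 ± 19.9 CPM in Alstonville libraries (log2 fold change 3.42, SE 0.79, adjusted p = 0.0116). All 4 were without overlap, and Dahomey replicate 2 was the lowest of its group for the genes that fell and the highest for those that rose. Cht10, a chitinase of the moult, had a log2 fold change of 1.71 (SE 0.48, adjusted p = 0.0291), and was not called without Dahomey replicate 2 or Alstonville replicate 1, 3 or 4 (adjusted p = 0.065 to 0.0885).

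**Figure D4:**
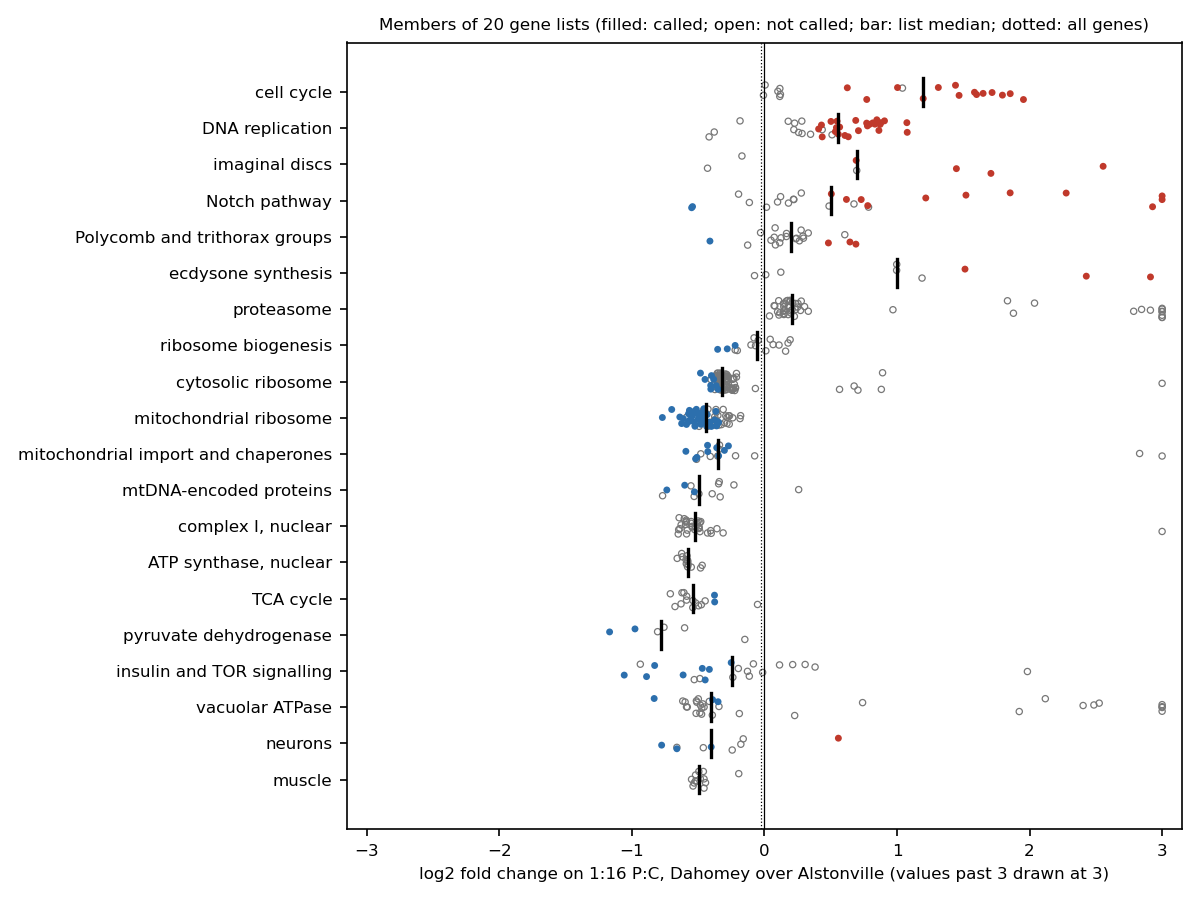
Log2 fold changes on 1:16 P:C, Dahomey over Alstonville, of the tested members of 20 gene lists, with filled points as called genes (red higher, blue lower), open points as genes not called, bars as list medians, a dotted line as the median of all genes and values past 3 drawn at 3. Called members are all above 0 in the cell cycle and DNA replication lists and all below 0 in the mitochondrial lists, and members of the nuclear complex I, ATP synthase and muscle lists are open.

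Of 72 tested genes of the mitochondrial ribosome 39 fell and 0 rose in Dahomey, with a median of -0.44 and all 72 values below 0. The largest change among called genes was that of mRpL15 (3L:20435110-20436209), at 14.5, 11.2, 16.1 and 12.4 CPM in Dahomey, against 23.7, 21.7, 24.8 and 22.3 CPM in Alstonville libraries (log2 fold change -0.77, SE 0.14, adjusted p = 0.00383). Next came mRpS33 (3R:16436045-16436597), at 7.56, 5.93, 8.13 and 7.14 CPM in Dahomey, against 11.7, 11.6, 10.9 and 12.5 CPM in Alstonville libraries (log2 fold change -0.70, SE 0.14, adjusted p = 0.00599). mRpL11 (3R:14511838-14512691) had 5.62 ± 0.754 CPM in Dahomey and 8.74 ± 0.818 CPM in Alstonville libraries (log2 fold change -0.64, SE 0.15, adjusted p = 0.0117). Dahomey libraries were below all Alstonville libraries for the 3 genes, replicate 2 being the lowest each time. The count was 17 without Dahomey replicate 2, 18 without Dahomey replicate 4 or Alstonville replicate 1, and 24 or 25 without Alstonville replicate 4 or 3. It was 30 with relative log expression and 20 with upper-quartile scaling.

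Of 90 genes of the cytosolic ribosome 8 fell and 0 rose (median -0.32), a share near the 9.30% of all tested genes that fell. The count changed with single libraries: it was 1 without Dahomey replicate 2 or 4, Alstonville replicate 2 or 4 or Dahomey 1:2 P:C replicate 2, 3 without Dahomey replicate 1 or Alstonville replicate 1 or 3, 4 without Dahomey 1:2 P:C replicate 1 or 3, 21 without Dahomey replicate 3, and 19 without Dahomey 1:2 P:C replicate 4. The highest count was 63, without Alstonville 1:2 P:C replicate 4. It was 3 with relative log expression and 0 with upper-quartile scaling. The largest change was that of RpL39, at 518 ± 36.5 CPM in Dahomey and 724 ± 58.7 CPM in Alstonville libraries (log2 fold change -0.48, SE 0.13, adjusted p = 0.0226). RpL39 was not called without Dahomey replicate 2 or 4, Alstonville replicate 2 or 4 or Dahomey 1:2 P:C replicate 2 (adjusted p = 0.0557 to 0.0666).

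Called genes of mitochondrial gene expression and import were lower too. Of 19 tested genes of import and folding 9 fell and 0 rose (median -0.35), 4 fell without Dahomey replicate 2 or 4, 5 without Alstonville replicate 1 or 4, and 2 with upper-quartile scaling. Hsc70-5 (2R:14252598-14256192), the mitochondrial Hsp70 that pulls proteins into the matrix, had 261, 212, 261 and 253 CPM in Dahomey, against 358, 357, 371 and 401 CPM in Alstonville libraries (log2 fold change -0.59, SE 0.13, adjusted p = 0.00868). Tom40 (X:7736893-7739978), the pore of the outer membrane, had 65.2 ± 6.63 CPM in Dahomey and 93.5 ± 5.45 CPM in Alstonville libraries (log2 fold change -0.52, SE 0.10, adjusted p = 0.00395). Neither overlapped between mitotypes. Of 17 genes of mitochondrial transcription, translation and mtDNA upkeep 5 fell and 0 rose (median -0.32), 2 fell without Dahomey replicate 2, and 3 without Dahomey replicate 4, Alstonville replicate 1 or 4 or with upper-quartile scaling. bsf, an RNA-binding protein that stabilises mitochondrial messages, had 99.1 ± 12.5 CPM in Dahomey and 141 ± 4.62 CPM in Alstonville libraries (log2 fold change -0.51, SE 0.11, adjusted p = 0.0103). mTerf3, of the termination factor family, had 9.83 ± 1.07 CPM in Dahomey and 13.7 ± 1.52 CPM in Alstonville libraries (log2 fold change -0.48, SE 0.11, adjusted p = 0.0111). The elongation factor mEFG1 had a log2 fold change of -0.64 (SE 0.18, adjusted p = 0.0269), and was not called without Dahomey replicate 2 or 4 or Alstonville replicate 1, 2 or 4 (adjusted p = 0.0546 to 0.0836).

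The nuclear subunits of complexes I to V presented a shift without calls in the fit of 16 libraries. None of 68 tested genes was called, although 44 had an unadjusted p under 0.05, 67 were below 0 and 66 had no overlap with Dahomey below, a feature of 24.2% of all tested genes. Their median was -0.56 on 1:16 and -0.26 on 1:2, and 0 had an unadjusted p under 0.05 for the interaction. Together they summed to 16078, 10113, 18379 and 15255 CPM in Dahomey, against 22821, 22172, 22184 and 22485 CPM in Alstonville libraries. UQCR-C1, a core protein of complex III, had 478, 308, 618 and 499 CPM in Dahomey, against 860, 793, 837 and 794 CPM in Alstonville libraries (log2 fold change -0.79, SE 0.30, adjusted p = 0.0909). The electron carrier Cyt-c-p had 163 ± 36.6 CPM in Dahomey and 284 ± 26.5 CPM in Alstonville libraries (log2 fold change -0.81, SE 0.26, adjusted p = 0.0551). The number called was 36 when only the 8 libraries were fitted, 61 without Alstonville 1:2 P:C replicate 4, 6 in DESeq2, and 5, 0, 14 and 66 in limma with 0, 1, 2 and 3 surrogate variables. The fit of 16 libraries gave each gene a single estimate of spread over all groups, so that its SE also carried the spread on 1:2 P:C. The muscle markers, whose sums are given above, lay in the same order, with a median of -0.49 and 0 of 13 called (10 without overlap and Dahomey below), Mhc being at 11282, 6523, 13398 and 11691 CPM in Dahomey, against 16003, 17117, 14289 and 15380 CPM in Alstonville libraries (log2 fold change -0.55, SE 0.92, adjusted p = 0.686). The part of muscle in the shift was not tested.

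Of the 13 proteins encoded in the mtDNA 3 fell and 0 rose in Dahomey (median -0.49). ND1 (MT:11721-12659), a membrane subunit of complex I, had 1047, 767, 1118 and 1052 CPM in Dahomey, against 1512, 1894, 1602 and 1629 CPM in Alstonville libraries (log2 fold change -0.74, SE 0.18, adjusted p = 0.0142). Its libraries did not overlap, and it was called in every fit without 1 library. ND4 (MT:8207-9545) had 1250, 833, 1296 and 1171 CPM in Dahomey, against 1638, 1893, 1680 and 1693 CPM in Alstonville libraries (log2 fold change -0.60, SE 0.19, adjusted p = 0.0469). The level of CYTB (MT:10499-11635), the subunit of complex III encoded in the mtDNA, was 5859, 4162, 6035 and 5404 CPM in Dahomey, against 7448, 8336, 7581 and 7583 CPM in Alstonville libraries (log2 fold change -0.53, SE 0.17, adjusted p = 0.0487). Both were without overlap, but ND4 was called in 4 and CYTB in 3 of the 16 fits without 1 library. ND4 was not called without Dahomey replicate 1, 2 or 4, any single Alstonville replicate, Dahomey 1:2 P:C replicate 1, 2 or 3 or Alstonville 1:2 P:C replicate 2 or 3 (adjusted p = 0.053 to 0.134). CYTB was not called without any single Dahomey replicate, any single Alstonville replicate, any single Dahomey 1:2 P:C replicate or Alstonville 1:2 P:C replicate 3 (adjusted p = 0.0502 to 0.138). The count of 3 was 1 in 11 of these fits and under relative log expression and upper-quartile factors, and 7 without Alstonville 1:2 P:C replicate 4. On 1:2 P:C the median of the 13 was 0.16, and ND1 was at 678 CPM in Dahomey and 690 CPM in Alstonville libraries. Whether differences in sequence between the mitotypes changed the mapping of mtDNA reads was not tested. As a share of all counts the mtDNA-encoded genes took 7.37 to 9.0% in Dahomey and 8.59 to 9.63% in Alstonville libraries. These shares overlapped, unlike the CPM of ND1, ND4 and CYTB, and were taken without TMM factors.

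Few genes of carbon metabolism were called, and those that were fell in Dahomey. Of 6 genes of the pyruvate dehydrogenase complex and its regulators 2 fell. Pdk (2R:9426439-9434638), the kinase that switches the complex off, had 138, 122, 141 and 136 CPM in Dahomey, against 205, 260, 332 and 411 CPM in Alstonville libraries (log2 fold change -1.17, SE 0.18, adjusted p = 0.00163). Its Dahomey libraries lay within a narrow band and its Alstonville libraries spread over a factor of about 2. Pdk differed by a similar amount on 1:2 P:C, with means of 101 CPM in Dahomey and 218 CPM in Alstonville libraries (log2 fold change -1.11, adjusted p = 0.0442, interaction -0.06, SE 0.25). muc, the acetyltransferase core of the complex, had 295, 180, 317 and 274 CPM in Dahomey, against 549, 513, 541 and 493 CPM in Alstonville libraries (log2 fold change -0.98, SE 0.27, adjusted p = 0.0286), and was not called without Dahomey replicate 2 or 4 or any single Alstonville replicate (adjusted p = 0.0515 to 0.0857). Without Alstonville 1:2 P:C replicate 4 5 of the 6 were called, and 1 without Dahomey replicate 2 or 4 or any of the Alstonville replicates of the 1:16 P:C diet.

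Of 16 glycolysis genes 1 fell, Hex-C (2R:15218837-15220329), a hexokinase, at 3.07, 1.55, 2.98 and 2.11 CPM in Dahomey, against 9.46, 6.89, 8.28 and 6.51 CPM in Alstonville libraries (log2 fold change -1.68, SE 0.32, adjusted p = 0.00495). Of 16 genes of the TCA cycle 2 were called lower, against 9.30% of all tested genes. No overlap with Dahomey below was found in 15 of the 16, a feature of 24.2% of all tested genes, and the median was -0.54. Scsalpha1, of succinyl-CoA synthetase, had a log2 fold change of -0.38 (SE 0.11, adjusted p = 0.0376) and was not called without Dahomey replicate 1, 2 or 4, any single Alstonville replicate or Dahomey 1:2 P:C replicate 1 or 2 (adjusted p = 0.0512 to 0.102). The TCA count was 12 without Alstonville 1:2 P:C replicate 4, but 0 without Dahomey 1:2 P:C replicate 2 or with upper-quartile scaling, and 1 with relative log expression or without Dahomey replicate 1, 2 or 4, any single Alstonville replicate or Dahomey 1:2 P:C replicate 1. Of 7 genes of the pentose phosphate pathway 2 fell, both dehydrogenases that make NADPH. Pgd had 180, 141, 174 and 160 CPM in Dahomey, against 257, 246, 316 and 260 CPM in Alstonville libraries (log2 fold change -0.72, SE 0.19, adjusted p = 0.0219). Zw had 20.6 ± 1.09 CPM in Dahomey and 29.3 ± 3.14 CPM in Alstonville libraries (log2 fold change -0.51, SE 0.13, adjusted p = 0.0206). Neither overlapped between mitotypes, but Pgd was not called without Dahomey replicate 2 or 4 or Alstonville replicate 3 (adjusted p = 0.0566 to 0.0712). Zw was not called without Alstonville replicate 1 or 3 or Dahomey 1:2 P:C replicate 2 (adjusted p = 0.0568 to 0.0694). Without Alstonville 1:2 P:C replicate 4 the count was 4. None of 8 genes of glycogen and trehalose metabolism was called.

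Few lipid genes were called, in both directions, where 6.01% of all tested genes were higher and 9.30% lower. Of 19 fatty acid elongases 1 rose and 3 fell in Dahomey, with 0 higher without Alstonville replicate 1 or 3. CG5326 (3R:22532174-22539919), an elongase by its sequence, had 15.1, 11.5, 13.7 and 12.1 CPM in Dahomey, against 40, 31.6, 40.5 and 42.1 CPM in Alstonville libraries (log2 fold change -1.56, SE 0.14, adjusted p = 0.000117), was among the 5 genes with the smallest p and at least 10 CPM that fell, and was called for the interaction (adjusted p = 0.0181). Baldspot, an elongase of very long chains, had 384 ± 60.2 CPM in Dahomey and 681 ± 61.2 CPM in Alstonville libraries (log2 fold change -0.83, SE 0.23, adjusted p = 0.0272), and was not called without Dahomey replicate 2 or 4 or Alstonville replicate 1, 3 or 4 (adjusted p = 0.0526 to 0.0811). Of 18 genes of fat synthesis, storage and lipolysis 2 rose and 1 fell, none of which was called in all fits. The lipase bmm, homologue of the mammalian adipose triglyceride lipase, had 53.6, 116, 51.6 and 58.4 CPM in Dahomey, against 28.2, 40.6, 40.9 and 42.8 CPM in Alstonville libraries (log2 fold change 0.87, SE 0.28, adjusted p = 0.0477). The fatty acid synthase FASN3 had 96.5, 205, 96.9 and 88.8 CPM in Dahomey, against 46.5, 83, 55.1 and 81.1 CPM in Alstonville libraries (log2 fold change 0.87, SE 0.25, adjusted p = 0.034). Dahomey replicate 2 was about 2 times as high as the other Dahomey libraries in both genes. bmm was not called without Dahomey replicate 2 or 4, any single Alstonville replicate, Dahomey 1:2 P:C replicate 2 or 3 or Alstonville 1:2 P:C replicate 2 or 3 (adjusted p = 0.0568 to 0.164). FASN3 was not called without Dahomey replicate 2 or Alstonville replicate 1 or 3 (adjusted p = 0.09 to 0.102). The lipase Lip4, which fell, had 61.8 ± 8.16 CPM in Dahomey and 99.4 ± 18 CPM in Alstonville libraries (log2 fold change -0.69, SE 0.18, adjusted p = 0.0237), and was not called without Dahomey replicate 3 or 4 or Alstonville replicate 1, 3 or 4 (adjusted p = 0.0502 to 0.0728). Of the list 2 genes fell without Alstonville 1:2 P:C replicate 1, and 3 fell when replicate 3 or 4 of that group was left out.

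Of 22 genes of insulin and TOR signalling 8 fell and 0 rose in Dahomey (median -0.24), with 6 to 9 lower in the fits without 1 library. Tor itself was not among them, as its symbol was not matched. InR (3R:21570248-21619321), the insulin receptor, had 54.1, 64.6, 48.6 and 41.6 CPM in Dahomey, against 138, 109, 110 and 77.2 CPM in Alstonville libraries (log2 fold change -1.06, SE 0.22, adjusted p = 0.00755). Ilp2 (3L:9799698-9800440), an insulin-like peptide of the brain, had 4.54, 3.24, 5.11 and 4.22 CPM in Dahomey, against 7.37, 8.72, 8.45 and 7.16 CPM in Alstonville libraries (log2 fold change -0.89, SE 0.20, adjusted p = 0.00997). Thor (2L:3478434-3479612), the translation inhibitor 4E-BP, had 733 ± 188 CPM in Dahomey and 1301 ± 79.7 CPM in Alstonville libraries (log2 fold change -0.83, SE 0.17, adjusted p = 0.00616). The 3 genes showed no overlap, and on 1:2 P:C their log2 fold changes were 0.16, -0.02 and -0.04. S6k, the kinase of ribosomal protein S6, fell by 0.25 (SE 0.06, adjusted p = 0.0204), at 168, 170, 167 and 162 CPM in Dahomey, against 199, 203, 198 and 194 CPM in Alstonville libraries, and was not called without Dahomey replicate 4, Alstonville replicate 1 or 3 or Dahomey 1:2 P:C replicate 2 (adjusted p = 0.0511 to 0.0967). CrebB, a transcription factor that the study discusses for this diet, had 60.1 ± 6.69 CPM in Dahomey and 90.1 ± 6.39 CPM in Alstonville libraries (log2 fold change -0.58, SE 0.09, adjusted p = 0.00155), without overlap. Of the 33 genes that the study discusses for this diet 3 rose and 11 fell (median -0.37), with 1 to 3 higher and 6 to 16 lower in the fits without 1 library, but they were discussed on the basis of these samples and are not independent evidence of a direction.

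The genes of the antimicrobial response that were called fell in Dahomey. Of 13 antimicrobial peptides 3 fell and 0 rose (median -2.57), and the list summed to 21.7, 15.6, 12.9 and 7.5 CPM in Dahomey, against 161, 72.6, 113 and 79.7 CPM in Alstonville libraries. AttC (2R:13393705-13394667), an attacin, had 4.58, 3.51, 3.06 and 2.04 CPM in Dahomey, against 65.4, 29.5, 58 and 38.3 CPM in Alstonville libraries (log2 fold change -3.86, SE 0.48, adjusted p = 0.000837). CecC and CecB are cecropins. CecC had 1.43, 0.413, 0.419 and 0.0704 CPM in Dahomey, against 6.57, 4.61, 7.21 and 5.36 CPM in Alstonville libraries (log2 fold change -3.35, SE 0.87, adjusted p = 0.0211), and was not called without Dahomey replicate 2 or Alstonville replicate 1 or 3 (adjusted p = 0.0503 to 0.064). CecB was at 0.133 ± 0.165 CPM in Dahomey and 1.1 ± 0.301 CPM in Alstonville libraries (log2 fold change -3.03, SE 0.75, adjusted p = 0.0163). Its Dahomey mean was near the level of 3 counts in a library, 0.103 to 0.126 CPM. The 3 peptides were without overlap, and 5 of the list fell without Dahomey replicate 1. PGRP-LC (3L:9338810-9348336), the receptor of bacterial peptidoglycan upstream of these peptides, had 57.5, 52.1, 50.8 and 43 CPM in Dahomey, against 89.5, 78.3, 90.2 and 83.3 CPM in Alstonville libraries (log2 fold change -0.75, SE 0.10, adjusted p = 0.000837), and was called for the interaction (adjusted p = 0.0266). It was chosen after its values were seen.

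Stress and detoxification genes showed few calls, where 6.01% of all tested genes were higher and 9.30% lower. Of 20 antioxidant genes 3 fell and 0 rose, 0 fell without Dahomey replicate 2 or 4, Alstonville replicate 1, 3 or 4 or Dahomey 1:2 P:C replicate 2, 1 without Dahomey replicate 1, Alstonville replicate 2 or Dahomey 1:2 P:C replicate 1, but 6 when Alstonville 1:2 P:C replicate 4 was left out. GstD1, a glutathione S-transferase, had 510, 525, 536 and 544 CPM in Dahomey, against 949, 830, 1011 and 930 CPM in Alstonville libraries (log2 fold change -0.82, SE 0.26, adjusted p = 0.0489). Its libraries were far apart, but it was not called without any single Dahomey replicate, any single Alstonville replicate, Dahomey 1:2 P:C replicate 1, 2 or 3 or Alstonville 1:2 P:C replicate 2 or 3 (adjusted p = 0.0518 to 0.113). Trx2, a thioredoxin, had 163 ± 23.8 CPM in Dahomey and 260 ± 15 CPM in Alstonville libraries (log2 fold change -0.67, SE 0.19, adjusted p = 0.0289), and was not called without Dahomey replicate 2 or 4, Alstonville replicate 1, 3 or 4 or Dahomey 1:2 P:C replicate 2 (adjusted p = 0.0575 to 0.0891). The third was Trxr1, the thioredoxin reductase, at 254 ± 27.6 CPM in Dahomey and 340 ± 13.7 CPM in Alstonville libraries (log2 fold change -0.42, SE 0.13, adjusted p = 0.038), which was not called without Dahomey replicate 1, 2 or 4, any single Alstonville replicate or Dahomey 1:2 P:C replicate 1 or 2 (adjusted p = 0.051 to 0.113). Of 78 cytochrome P450 genes 5 rose and 3 fell (median -0.13), with 3 higher without Dahomey replicate 2 and 1 to 5 lower in the fits without 1 library. The share that rose was near the 6.01% of all tested genes, and the share that fell was under the 9.30%. Cyp12c1, of the mitochondrial class, had 31.7, 33.9, 52.8 and 39.1 CPM in Dahomey, against 9, 11.7, 8.94 and 11.6 CPM in Alstonville libraries (log2 fold change 1.93, SE 0.29, adjusted p = 0.00155). Cyp6t1 had 5.25 ± 1.2 CPM in Dahomey and 1.47 ± 0.396 CPM in Alstonville libraries (log2 fold change 1.84, SE 0.30, adjusted p = 0.00211). Both were higher in every Dahomey library. Of 11 genes of programmed cell death 2 rose and 1 fell. skl, a killer gene of the reaper family, had 1.6, 1.72, 1.26 and 1.34 CPM in Dahomey, against 0.377, 0.581, 0.354 and 0.37 CPM in Alstonville libraries (log2 fold change 1.80, SE 0.26, adjusted p = 0.00125). Its relative grim was at 0.944 ± 0.225 CPM in Dahomey and 0.292 ± 0.113 CPM in Alstonville libraries (log2 fold change 1.68, SE 0.35, adjusted p = 0.00737). An antisense RNA covers 75.9% of the exon bases of grim. Diap1, which blocks caspases and is itself blocked by these proteins, had 181 ± 13.4 CPM in Dahomey and 253 ± 25.5 CPM in Alstonville libraries (log2 fold change -0.48, SE 0.14, adjusted p = 0.0368), and was not called without any single Dahomey replicate, Alstonville replicate 1, 3 or 4 or Dahomey 1:2 P:C replicate 2 (adjusted p = 0.0525 to 0.109). None of 48 proteasome genes was called, and all 48 were above 0 with a median of 0.21, which was -0.05 without Dahomey replicate 2.

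Few digestive genes were called, and the shares lower in the amylase and vacuolar ATPase lists were near the 9.30% of all tested genes. Of 14 amylases and maltases 1 fell, Mal-B2, at 47.7 ± 7.21 CPM in Dahomey and 71.7 ± 3.71 CPM in Alstonville libraries (log2 fold change -0.59, SE 0.12, adjusted p = 0.00627). Of 16 Jonah proteases 3 fell, but 0 without Dahomey replicate 1 or 2 or Alstonville replicate 1, 1 without Dahomey replicate 4, Alstonville replicate 3 or 4 or Dahomey 1:2 P:C replicate 2, but 6 when Alstonville 1:2 P:C replicate 4 was left out. Jon99Ciii had 723 ± 267 CPM in Dahomey and 1792 ± 407 CPM in Alstonville libraries (log2 fold change -1.31, SE 0.41, adjusted p = 0.0455), and Jon99Fi, whose libraries ranged over 2.05 to 8.06 CPM in Dahomey and 9.38 to 70.1 CPM in Alstonville, a log2 fold change of -2.61 (SE 0.71, adjusted p = 0.025). Jon99Ciii was not called without Dahomey replicate 1, 2 or 4, Alstonville replicate 1, 3 or 4, Dahomey 1:2 P:C replicate 1, 2 or 3 or Alstonville 1:2 P:C replicate 3 (adjusted p = 0.0559 to 0.128). Jon99Fi was not called without Dahomey replicate 1, 2 or 3 or Alstonville replicate 1 (adjusted p = 0.0565 to 0.0986). CG1304, a serine protease by its sequence, had 2.9, 2.14, 2.93 and 2.99 CPM in Dahomey, against 69.6, 62.9, 87.7 and 16.3 CPM in Alstonville libraries (log2 fold change -4.43, SE 0.76, adjusted p = 0.00279), with Alstonville replicate 4 well below the other Alstonville libraries. Of 32 vacuolar ATPase subunits, which acidify the gut and other epithelia, 3 fell (median -0.40), but 1 without Dahomey replicate 4 or Alstonville replicate 3 or with upper-quartile scaling, and 5 and 18 without Alstonville 1:2 P:C replicate 1 and 4. Vha36-3 had 27.9 ± 9.15 CPM in Dahomey and 49.6 ± 3.49 CPM in Alstonville libraries (log2 fold change -0.83, SE 0.22, adjusted p = 0.0239), and was not called without Dahomey replicate 4 or Alstonville replicate 1 or 3 (adjusted p = 0.0561 to 0.067).

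Of 9 neuron markers 1 rose and 3 fell in Dahomey. para (X:16455027-16533096), the voltage-gated sodium channel, had 23.2, 17, 21.1 and 21.7 CPM in Dahomey, against 36.1, 34.6, 33.7 and 37.9 CPM in Alstonville libraries (log2 fold change -0.78, SE 0.17, adjusted p = 0.0105). Rdl (3L:9145838-9182149), a GABA receptor, had 25.6, 22.4, 23.5 and 23.8 CPM in Dahomey, against 37.3, 35.2, 38.6 and 39.3 CPM in Alstonville libraries (log2 fold change -0.66, SE 0.12, adjusted p = 0.00459). nSyb, the neuronal synaptobrevin of the synaptic vesicle, had 43 ± 6.53 CPM in Dahomey and 56.9 ± 1.92 CPM in Alstonville libraries (log2 fold change -0.40, SE 0.10, adjusted p = 0.0183), and was not called without Dahomey replicate 2 or 4 or Alstonville replicate 3 (adjusted p = 0.0521 to 0.0586). The 3 were without overlap and lower in every Dahomey library. elav, an RNA-binding protein of all neurons, moved the other way, at 47.7, 72.6, 50.4 and 52.4 CPM in Dahomey, against 33.3, 46.5, 37.6 and 34.2 CPM in Alstonville libraries (log2 fold change 0.56, SE 0.14, adjusted p = 0.0186), and was not called without Dahomey replicate 2 or Alstonville replicate 1, 3 or 4 (adjusted p = 0.0511 to 0.0648). Exons of another gene on the same strand cover 34.2% of its exon bases. Beside the list, and chosen after their values were seen, the neuropeptide sNPF (2L:20027915-20056373) had 12.3, 9.75, 14.5 and 12.4 CPM in Dahomey, against 21, 23.4, 24.5 and 27.4 CPM in Alstonville libraries (log2 fold change -0.98, SE 0.12, adjusted p = 0.000837). Likewise amon (3R:26697697-26714159), the convertase that cuts neuropeptides from their precursors, had 26.8 ± 1.67 CPM in Dahomey and 37.8 ± 2.3 CPM in Alstonville libraries (log2 fold change -0.50, SE 0.07, adjusted p = 0.00086). Both were called for the interaction (adjusted p = 0.0315 and 0.0283).

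Several of the 10 largest rises among called genes without overlap were in transcripts almost absent from Alstonville libraries. lncRNA:CR45196 (3R:9228133-9230277), a long noncoding RNA, was at 15, 10.8, 26.2 and 20.8 CPM in Dahomey, against 0, 0.0415, 0 and 0.0462 CPM in Alstonville libraries (log2 fold change 9.44, SE 1.70, adjusted p = 0.00373). It had 1886 counts in the 4 Dahomey and 2 counts in the 4 Alstonville libraries, a ratio of 827.4 after scaling with a 95% exact counting interval of 229 to 6837. osk (3R:8935126-8938395), which organises the germ plasm of the egg, was at 4.33, 5.82, 9.81 and 0.563 CPM in Dahomey, against 0, 0, 0.0443 and 0.0462 CPM in Alstonville libraries (log2 fold change 7.60, SE 1.21, adjusted p = 0.00193). Its ratio was 229 (63.1 to 1896), from 522 and 2 counts, and 84.1% of its exon bases lie in exons of a noncoding gene on the same strand. It had too few libraries at 0.25 CPM to be tested when any single Dahomey replicate was left out. It was 1 of 3 ovary markers, and the list summed to 34.8 to 36.9 CPM in Dahomey and 28.8 to 31.7 CPM in Alstonville libraries. These intervals cover counting error only.

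Other rises had 0 counts in all Alstonville libraries and are bounds against a floor of 3 counts per library, 0.13 CPM after scaling. lncRNA:CR45234, at 0.84, 0.586, 0.712 and 0.598 CPM in Dahomey, against 0, 0, 0 and 0 CPM in Alstonville libraries, was at least 5.25-fold higher in Dahomey (adjusted p = 0.0169). CG5653, at 0.84, 0.896, 0.251 and 0.95 CPM in Dahomey, against 0, 0, 0 and 0 CPM in Alstonville libraries, was at least 5.63-fold higher (adjusted p = 0.00523). lncRNA:CR44036 was at least 3.23-fold higher, at 0.504, 0.31, 0.587 and 0.282 CPM in Dahomey, against 0, 0, 0 and 0 CPM in Alstonville libraries (adjusted p = 0.0256), and was not called without Alstonville replicate 1, 3 or 4 (adjusted p = 0.0521 to 0.0615). These 3 were at similar levels in all 4 Dahomey libraries or in 3 of them. CG34377, at 0.084, 9.06, 0.126 and 0.458 CPM in Dahomey, against 0, 0, 0 and 0 CPM in Alstonville libraries (adjusted p = 0.028), was at least 18.7-fold higher, but 1.71-fold without its highest library, Dahomey replicate 2, and it was not called without any single Alstonville replicate (adjusted p = 0.0525 to 0.0657). CG3649, at 0.084, 1.17, 0.126 and 0.0704 CPM in Dahomey, against 0, 0, 0 and 0 CPM in Alstonville libraries (adjusted p = 0.013), fell under the floor without that library, so that no bound is given.

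Among the 10 largest falls of genes without overlap were 3 Tweedle genes, AttC and CG1304, given above. The others were Or82a, an odorant receptor, and 4 genes of no named function. Or82a (3R:4256972-4258444) was at 0.042, 0.103, 0.126 and 0.0352 CPM in Dahomey, against 1.97, 1.78, 1.68 and 1.02 CPM in Alstonville libraries (log2 fold change -4.32, SE 0.96, adjusted p = 0.00992). CG10814 (2R:13375975-13377731) was the most abundant of them, at 12.4, 6.55, 13.1 and 14.9 CPM in Dahomey, against 179, 136, 191 and 124 CPM in Alstonville libraries (log2 fold change -3.75, SE 0.93, adjusted p = 0.0171), and was not called without Dahomey replicate 2 (adjusted p = 0.0546). CG10598 was at 0.108 ± 0.0735 CPM in Dahomey and 4.57 ± 3.43 CPM in Alstonville libraries (log2 fold change -5.36, SE 1.06, adjusted p = 0.00553). CG10183 was at 0.252 ± 0.154 CPM in Dahomey and 4 ± 3.16 CPM in Alstonville libraries (log2 fold change -3.97, SE 0.74, adjusted p = 0.00423). CG42815, at 0.21, 0.276, 0.293 and 0.106 CPM in Dahomey, against 1.46, 6.52, 1.06 and 13.3 CPM in Alstonville libraries (log2 fold change -4.63, SE 0.95, adjusted p = 0.0184), spread over more than a factor of 10 among the Alstonville libraries and had 0 counts on 1:2 P:C. It was not called without Dahomey replicate 2 or 4 (adjusted p = 0.0546 and 0.0563). All 5 were low in each Dahomey library, at 0.378 CPM or less in all but CG10814. The Dahomey libraries together held 8 counts of Or82a, 11 of CG10598, 23 of CG42815 and 26 of CG10183. No bounds were computed for falls.

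Other lists held few calls, where 6.01% of all tested genes were higher and 9.30% lower, and the shares of the lists lay on both sides of these values. Each count above 0 given here moved by over 1.5 times, or to 0, without at least 1 of the libraries. Among genes of glutathione conjugation 1 of 35 rose and 1 fell, and among UDP-glycosyltransferases 1 of 31 rose and 2 fell. Small heat shock genes had 1 of 6 higher, and genes of chitin synthesis and moulting 1 of 16. The remaining lists had lower genes only: 3 of 20 cytosolic and 1 of 16 mitochondrial aminoacyl-tRNA synthetases, 3 of 16 genes of ribosome biogenesis, 2 of 14 sugar and amino acid transporters, and 1 each of 10 genes of mitochondrial fusion, fission and quality control, 17 of fatty acid oxidation, 8 of the polyol pathway, 8 of sugar sensing, 20 of autophagy and 7 midgut markers. None of 12 trypsins, 7 inducible Hsp70 genes, 7 haemocyte, 5 Malpighian tubule and 5 trachea and epidermis markers was called.

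Testis transcripts summed to more in the Dahomey libraries, without a called gene in the fit of 16 libraries. All 17 tested testis and male germ line markers had a fold change above 0 (median 2.22) but 0 were called, and 0 had an unadjusted p under 0.05 for the interaction. When only the 8 libraries were fitted 11 of 16 were called higher (median 2.53), in DESeq2 4 of 17, and in limma with 1, 2 and 3 surrogate variables 1 of 17 was called each time, with medians of -0.01, 0.14 and 0.16. They summed to 62.3, 33.8, 43.5 and 82.7 CPM in Dahomey, against 15.8, 12.7, 10.8 and 20.1 CPM in Alstonville libraries, without overlap. betaTub85D, the tubulin of the male germ line, was at 16.4, 7.68, 10.1 and 24.5 CPM in Dahomey, against 0.711, 0.913, 0.0885 and 1.43 CPM in Alstonville libraries (log2 fold change 4.22, SE 1.99, adjusted p = 0.161). The male-specific RNAs roX1 and roX2 together were at 261.4 to 350.3 CPM in Dahomey and 113.4 to 509.4 CPM in Alstonville libraries and so overlapped, although the larvae were described as female. The part of male larvae in any result was not tested.

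Most of the differences on 1:16 P:C were small on 1:2 P:C. On 1:2 the median log2 fold change was 0.09 over the 766 genes higher in Dahomey on 1:16 and -0.06 over the 1186 lower genes. The comparisons share no libraries. The sign was the same on both diets for 1417 of the 1952 genes, and 8 were called on both, of only 12 genes called on 1:2 (0.0941% of those tested). Replicates differed more among themselves on 1:2. The chi-square per gene of counts between pairs of replicates there was 82.1 to 847.6 in Alstonville and 65.6 to 275.6 in Dahomey. On 1:16 it was 12.2 to 81.0 and 17.3 to 188.5. The part of this spread in the few calls on 1:2 was not tested. Of the 8 genes called on both diets, Pdk was described above. RSG7 (X:16838173-16844433), a regulator of G-protein signalling, had 12.9 ± 0.719 CPM in Dahomey and 7.08 ± 0.623 CPM in Alstonville libraries (log2 fold change 0.87, SE 0.14, adjusted p = 0.00226), and 0.86 on the log2 scale on 1:2 (adjusted p = 0.0442). CG45061 had 4.67 ± 0.812 CPM in Dahomey and 12.2 ± 4.51 CPM in Alstonville libraries (log2 fold change -1.39, SE 0.26, adjusted p = 0.00459), and -1.69 on 1:2 (adjusted p = 0.0442). Both were chosen after their values were seen.

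For the interaction itself 100 genes were called (0.784% of those tested, 1936 at an unadjusted p under 0.05), and 98 of them were among the 1952. The gene with the smallest p was CG15414 (2L:3480755-3491071), of no named function, at 13.2, 14.9, 12.6 and 12.5 CPM in Dahomey, against 51.9, 37.6, 47 and 52.8 CPM in Alstonville libraries (log2 fold change -1.83, SE 0.12, adjusted p = 4.3e-06). On 1:2 P:C its means were 21.3 CPM in Dahomey and 19.6 CPM in Alstonville libraries, with an interaction of -1.95 (SE 0.17, adjusted p = 0.000235). CG31886 had 31.6 ± 4.43 CPM in Dahomey and 70 ± 7.72 CPM in Alstonville libraries (log2 fold change -1.15, SE 0.12, adjusted p = 0.000456). CG2269 had 41.4 ± 3.43 CPM in Dahomey and 68.5 ± 1.95 CPM in Alstonville libraries (log2 fold change -0.73, SE 0.09, adjusted p = 0.000837). Their interactions were -1.14 (SE 0.17) and -0.82 (SE 0.12), each with an adjusted p of 0.0207. CycB and stg were called as well, at 1.80 (SE 0.37, adjusted p = 0.045) and 1.90 (SE 0.38, adjusted p = 0.0377), and rn at 2.51 (SE 0.53, adjusted p = 0.0489). Higher and lower interactions numbered 48 and 52, but 82 and 48 with relative log expression and 129 and 26 with upper-quartile scaling, and 156 and 54 with 10 counts required in every library. The count moved with nearly every library left out. It was 4 without Alstonville replicate 1 or 3 or Dahomey replicate 4, 13 without Alstonville replicate 4, 56 without Dahomey replicate 2 and 182 without Alstonville replicate 2. Of the 1:2 P:C diet, it was 4, 10, 13 and 244 without Dahomey replicate 1, 2, 3 or 4, and 22, 9, 40 and 396 without Alstonville replicate 1, 2, 3 or 4.

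**Figure D5:**
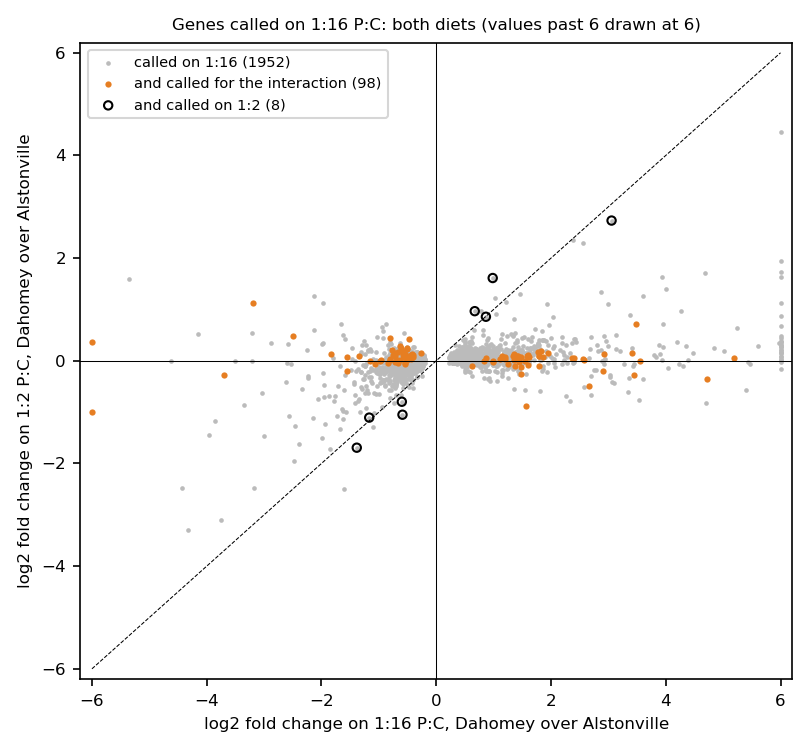
Each point is 1 of the 1952 genes called on 1:16 P:C, plotted by its log2 fold change there and on 1:2 P:C, Dahomey over Alstonville on both axes. Most points lie along 0 on the 1:2 axis, 98 were also called for the interaction (orange), and the 8 called on both diets (circles) lie near the dashed line of equal change.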

How the data were processed

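RNA-seq of 16 libraries of wandering larvae was used, 4 each of Dahomey and Alstonville on 1:16 P:C and 1:2 P:C. Per the methods the authors made poly(A) libraries, sequenced paired reads, aligned them with Subread to Release 6 plus ISO1 MT and assigned them to genes with featureCounts. What the authors deposited are raw counts, 1 column a library, which the tables per library repeat without a difference. Strand and the treatment of reads that map to several genes were not given in the sources used here. No sequence was printed.

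Of 17207 genes, 17063 had a name in the NCBI annotation. Genes that reached 0.25 CPM in 4 or more of the 16 libraries were tested (12750), with TMM factors and the robust quasi-likelihood test of edgeR 4.0.16 in R 4.3.3, 1 coefficient for each mitotype and diet, and Benjamini-Hochberg adjustment over all genes tested. The study itself used limma with surrogate variables, run here as an alternative (limma 3.58.1, 0 to 3 surrogate variables), as was DESeq2 1.42.0. The common biological coefficient of variation was 0.521. No 2 libraries agreed within sampling noise. On simulated counts of 12594 genes for this comparison, 179 of 200 genes changed by 2 on the log2 scale were recovered (89.5%), with 11 other calls. The changed genes were drawn only from the more abundant ones, so that recovery at low levels was not measured. Totals of 24869991 to 30340627 reads limit genes under 1 CPM most, and intervals cover counting error only.

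Genes were named by rule: the 10 largest changes in each direction among called genes without overlap, the 5 smallest p in each direction at 10 CPM or more, up to 3 called members of a list in each direction, genes the study discusses, and markers. The 51 pathway and 12 marker lists were written by hand, 650 of their 663 symbols matched, and members and lists were chosen with earlier results of these data known. Symbols without a match included Tor, the ligand Dl of the Notch list and phm of the ecdysone synthesis list. Exon overlaps were taken from the Ensembl annotation BDGP6.54.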

Additional observations from a re-analysis of the deposited data

Results flagged for a closer look

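In each group of 4 libraries the gap between the highest or lowest library and its nearest neighbour was divided by the range of the group. A value above Dixon's 95% critical value was singled out, as chance does in about 1 of 20 groups of independent normal values. CPM were used without a log, and many genes were named for their values in these libraries, so that this rate need not hold here. Singled out were 51 of 251 groups of a gene or a marker sum on 1:16 P:C, with the ratio in parentheses. Dahomey replicate 2 was the highest library in 25 of them: CG34377 (0.958), CG12715 (1.000), CG42460 (0.998), CG3649 (0.95), bmm (0.894), FASN3 (0.930), fzy (0.912), E(spl)m7-HLH (0.937), N (0.846), br (0.933), Eip74EF (0.919), sro (0.881), sad (0.95), spok (0.899), Fbp1 (0.999), Sgs5 (1.000), Sgs3 (0.999), Sgs7 (0.998), Cpr78E (0.940), Lcp1 (0.946), Cht10 (0.958), rn (0.886), vg (0.871), the summed imaginal discs markers (0.835) and the summed salivary gland markers (0.999). It was the lowest for CG1304 (0.891), Hsc70-5 (0.833) and the summed Malpighian tubule markers (0.912). Alstonville replicate 2 was the highest of its group in 13: Lsp2 (0.947), CYTB (0.847), CycB (0.849), stg (0.900), N (0.910), Eip74EF (0.993), Sgs7 (0.882), Lsp1gamma (0.969), Cpr78E (0.890), Lcp1 (0.922), skl (0.901), rn (0.886) and the summed salivary gland markers (0.851). Thus replicate 2 stood out in both mitotypes for N, Eip74EF, Sgs7, Cpr78E, Lcp1, rn and the salivary gland markers.

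Single libraries of Dahomey other than replicate 2 stood apart for CG5653 (replicate 3 lowest, 0.842), Scsalpha1 (replicate 3 highest, 0.869), CecB (replicate 1 highest, 0.856) and nSyb (replicate 3 highest, 0.900), the lowest of the group for CG5653 and the highest for the others. Those of Alstonville did so for bsf (replicate 4 highest, 0.844), Scsalpha1 (replicate 3 lowest, 0.889), bmm (replicate 1 lowest, 0.850), Sgs3 (replicate 3 highest, 0.886), Lcp65Af (replicate 4 highest, 0.986) and CecB (replicate 1 highest, 0.885), the lowest for Scsalpha1 and bmm and the highest for the others.

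The effect of mitotype was called as differing between diets for 21 of the genes named above (interaction test in edgeR, adjusted p in parentheses). Only 4 genes in all were called without Alstonville replicate 1 or 3, Dahomey replicate 4 or Dahomey 1:2 P:C replicate 1. At an adjusted p under 0.01 only 3 were called with all libraries. Most of these 21 calls were thus lost in each of those fits. The genes of cell division were feo (0.0254), BubR1 (0.0306), Incenp (0.0283), Klp61F (0.0315), CycB (0.045), fzy (0.0377) and stg (0.0377). Among genes of discs and Notch signalling they were rn (0.0489), E(spl)mdelta-HLH (0.0377) and Nedd4 (0.0467), and among cuticle genes TwdlO (0.0346), TwdlN (0.0306) and Lcp65Af (0.0381). Of the immune and neuropeptide genes they were PGRP-LC (0.0266), amon (0.0283) and sNPF (0.0315). The others were CG33267 (0.0266), CG15414 (0.000235), CG5326 (0.0181), CG31886 (0.0207) and CG2269 (0.0207). In the genes of cell division, rn, E(spl)mdelta-HLH and CG33267 the difference on 1:16 P:C was above that on 1:2 P:C, and in the others below it.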

How the results depend on the processing

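The count of 1952 genes for mitotype on 1:16 P:C became 3332 in limma with 3 surrogate variables, 4765 with the 8 libraries alone and 702 at an adjusted p under 0.01, and ranged over 1021 to 2916 when 1 library was left out. The 100 genes of the interaction became 155 with upper-quartile scaling, 210 with 10 counts required in every library, 742 in DESeq2, 176, 942 and 1397 in limma with 0, 2 and 3 surrogate variables and 3 at an adjusted p under 0.01, and ranged over 4 to 396 when 1 library was left out. The replicate block gave 1739 and 136 genes. Correlations of same-numbered libraries on 1:16 were -0.04, 0.05, 0.24 and 0.41, and those of pairs with different numbers ranged over -0.38 to 0.18. A pairing by number was not tested further. The log2 fold changes of Sgs3 and Sgs7 were reversed without Dahomey replicate 2, and ranged over -0.10 to 7.53 and -0.20 to 7.33 when 1 library was left out. Of 1353 values of named genes with all libraries kept 1179 held their direction and side of the threshold, 159 lost the call and 15 gained one, and of 1844 with 1 library left out 1629 held both. The causes were not tested. With 4 libraries a group and a common coefficient of variation of 0.521, 92 genes higher and 14 lower were called among the 2507 tested genes under 1 CPM, and the power to detect changes smaller than the simulated ones was not measured.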
